A study of Homo sapiens with 6 samples.

Results

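The 10 genes described here encode actin and proteins that bind actin filaments or drive their contraction: ACTA2, MYL9, TPM1, TPM2, TPM4, CALD1, CNN2, CNN3, TAGLN and TAGLN2. They were chosen by name, with earlier results of these data known, so counts over them only describe these 10 genes. All 10 are among the 15897 genes of the deposited table, and all 10 passed the filter on low values. Expression was measured by RNA-seq of total RNA in 6 libraries labelled as H1650, an established human lung adenocarcinoma cell line. The 3 control libraries carry the genotype label wild type, and the 3 shSETD2 libraries carry an shRNA against SETD2, the methyltransferase that places trimethylation on lysine 36 of histone H3. According to the methods, stable lines were made with lentivirus and several shRNA constructs against SETD2 were built. The sources used here do not say which construct an shSETD2 library carries, whether the control cells received a vector, or whether libraries of a group came from separate cultures, so the spread within a group may be technical. Values are FPKM, which count fragments relative to gene length and to all mapped fragments of the library.

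Actin filaments bound to myosin II form the contractile bundles called stress fibres. Tropomyosins are coiled-coil dimers that lie along the filament and decide which other proteins gain access to it, while caldesmon and the calponins restrain the actomyosin ATPase and transgelins crosslink filaments. MYL9 is a regulatory light chain whose phosphorylation switches myosin II on. Many genes of this machinery are controlled by serum response factor (SRF), which binds the CArG box, and by its MRTF cofactors. ACTA2, TAGLN and MYL9 are widely used as markers of smooth muscle and of myofibroblasts.

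Of the 10 genes, 8 rose and 1, ACTA2, fell with shSETD2 (limma, adjusted p under 0.05), and TAGLN did not pass the test. Among all 14068 genes tested, 26.8% rose and 51.8% fell by the same rule, 78.6% in either direction. The largest rises were those of MYL9, TPM1 (23.7-fold on mean FPKM), TPM2 (9.81-fold) and CNN2 (8.34-fold). MYL9 was listed at 0 in 2 control libraries and at 41.0 to 47.5 FPKM in the shSETD2 libraries. The median log2 fold change on the log2(FPKM + 1) scale was 1.11 over the 10 genes and -0.29 over all genes tested. For 8 genes the lowest shSETD2 library exceeded the highest control library, and for 1 gene the reverse held. Among all genes tested these shares were 27.9% and 53%, or 80.9% together, so a gap between the groups is common in these data. The summed FPKM of the 10 genes was 137.7, 138.4 and 148.8 in control libraries 1 to 3 and 399.0, 385.3 and 381.9 in shSETD2 libraries 1 to 3, 2.75-fold higher on average.

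SETD2 itself did not separate the groups, with 10.2 to 18.0 FPKM in the control and 8.09 to 12.2 FPKM in the shSETD2 libraries (log2 fold change -0.58, standard error 0.24, adjusted p = 0.0641), and groups are named by their labels. The gene passed the test without control library 2 (log2 fold change -0.83, adjusted p = 6.66e-03) or without shSETD2 library 3 (-0.73, adjusted p = 0.0420). The paper reports knockdown of SETD2 in H1650 cells by qPCR and western blot, which are not among the values used here. Pearson's r of log2(FPKM + 1) across genes, which are not independent replicates, was 0.982 to 0.990 within groups and 0.701 to 0.707 between them. The mesenchymal filament gene VIM rose from 66.5 ± 8.84 to 132.4 ± 4.58 FPKM (SD, n = 3). With median ratio scaling the median of all genes moved from -0.29 to -0.03 and the share of rises among all genes past the threshold from 34.1% to 48.6%, and with quantile normalization that median was -0.10. Marker genes moved with the groups too. Of 9 epithelial markers 7 were listed, and KRT19 and GRHL2 were not. The summed FPKM of the 7 was 14.1 to 16.0 in the control and 402.1 to 454.5 in the shSETD2 libraries. KRT18 alone was at 9.11 to 10.8 and 236.5 to 266.2 FPKM. KRT8 rose from 2.86 ± 0.252 to 93.9 ± 6.42 and KRT7 from 0.0208 ± 0.0191 to 81.9 ± 5.07 FPKM (SD, n = 3). CDH1 (E-cadherin) went from 1.27 ± 0.358 to 0.0120 ± 0.00175 FPKM (SD, n = 3). EPCAM, CLDN4 and ESRP1 were under the filter, with EPCAM lower and CLDN4 and ESRP1 higher in every shSETD2 library. Of 10 lung epithelial markers 2 were listed, NKX2-1 and LAMP3, with sums of 1.89 to 2.45 and 1.18 to 1.27 FPKM, NKX2-1 went from 1.65 ± 0.188 FPKM (SD, n = 3) to a listing at 0 in all 3 shSETD2 libraries, and LAMP3 rose from 0.584 ± 0.117 to 1.23 ± 0.0497 FPKM (SD, n = 3). Of 9 smooth muscle markers 2 were listed, SMTN (2.34 ± 0.360 to 17.2 ± 2.05 FPKM) and LMOD1 (2.46 ± 0.216 to 0.0105 ± 0.0181 FPKM, SD, n = 3), with sums of 4.14 to 5.19 and 15.1 to 19.2 FPKM, and MYH11, CNN1, DES, ACTG2 and MYOCD were not listed. Of 9 fibroblast markers 4 were listed, with sums of 4.04 to 4.54 and 0.292 to 0.340 FPKM, and COL1A1 fell from 2.78 ± 0.244 to 0.269 ± 0.0503 FPKM (SD, n = 3). With SETD2 overlapping and differences this broad, the shRNA and any other difference between the cells of the groups, their identity included, cannot be told apart, so a rise or fall below is one between libraries by label. The part of the marker differences in the results was not tested, and in bulk RNA a change in the share of a cell type and a change in RNA per cell cannot be told apart.

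**Figure D1:**
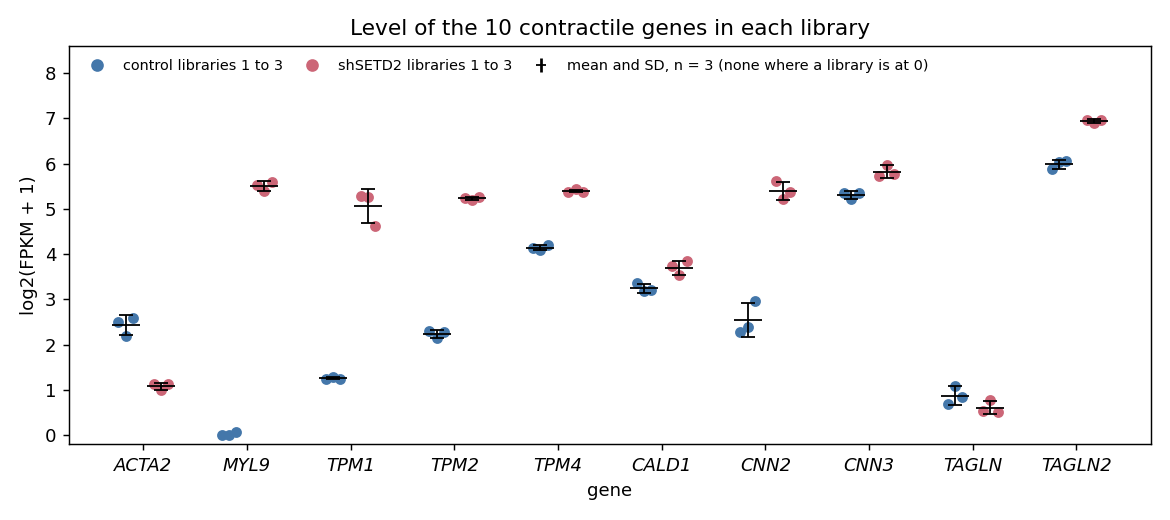
FPKM of the 10 genes on the log2(FPKM + 1) scale, with 1 point per library (blue, 3 control libraries; red, 3 shSETD2 libraries) and bars for the mean and SD where no library is at 0. The shSETD2 points lie above the control points for 8 genes and below them for ACTA2, and the groups overlap for TAGLN.

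Promoter sequences of 8 of the 10 genes, in 18 windows of the 250 bases before an annotated start, were taken from RefSeq in GRCh38.p14; TAGLN and MYL9 had no entry. The windows were searched on both strands for the CArG box bound by SRF, for a CArG-like variant with 1 of the 6 inner bases other than A or T, and for the MCAT motif CATTCC bound by TEAD factors. Some of these windows overlap, as the pair of TPM2 does. A CArG box was found in 2 of the 18 windows, 1 each of CNN2 and TPM4, and in 1.16% of all 35116 windows of this length. The CArG-like variant was found in 2 windows, 1 each of ACTA2 and CALD1, and in 5.96% of all windows, and MCAT in 4 windows, of ACTA2, CALD1 and CNN3, and in 11.9% of all windows. The 3 windows with a CArG box or a pair of CArG-like matches are shown, with that of TPM1, which has none of these 3 motifs. Capitals mark the matches, and each window is read 5′ to 3′ on the strand of its gene.
ACTA2, chr10:88952774-88953023, minus strand: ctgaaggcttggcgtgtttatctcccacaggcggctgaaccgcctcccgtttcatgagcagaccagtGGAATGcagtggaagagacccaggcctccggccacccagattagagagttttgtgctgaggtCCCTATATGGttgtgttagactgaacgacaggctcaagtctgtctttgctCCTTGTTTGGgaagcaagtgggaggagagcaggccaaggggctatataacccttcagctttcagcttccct
CNN2, chr19:1026358-1026607, plus strand: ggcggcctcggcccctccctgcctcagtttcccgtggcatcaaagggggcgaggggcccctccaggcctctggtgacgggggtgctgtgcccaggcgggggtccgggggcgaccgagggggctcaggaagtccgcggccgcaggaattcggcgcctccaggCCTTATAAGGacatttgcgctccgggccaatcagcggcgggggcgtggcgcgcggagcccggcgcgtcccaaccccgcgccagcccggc
TPM4, chr19:16067288-16067537, plus strand: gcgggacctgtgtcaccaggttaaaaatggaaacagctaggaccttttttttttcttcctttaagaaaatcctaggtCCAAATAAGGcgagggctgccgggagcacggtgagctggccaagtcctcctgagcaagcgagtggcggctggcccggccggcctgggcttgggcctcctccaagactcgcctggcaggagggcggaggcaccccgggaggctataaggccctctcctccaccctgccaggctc
TPM1, chr15:63048239-63048488, plus strand: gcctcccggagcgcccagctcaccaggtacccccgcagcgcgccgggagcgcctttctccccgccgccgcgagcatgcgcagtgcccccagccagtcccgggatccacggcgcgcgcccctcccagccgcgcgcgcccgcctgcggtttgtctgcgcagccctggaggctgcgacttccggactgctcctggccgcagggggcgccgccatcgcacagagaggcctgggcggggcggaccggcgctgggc

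In the ACTA2 window, the CArG-like matches start 121 and 71 bases before the start site and the MCAT match, on the reverse strand, 183 bases before it. The CArG box starts 89 bases before the start in CNN2 and 173 bases before it in TPM4. CNN2 and TPM4, the genes with a CArG box, both rose, while of the genes with the CArG-like variant CALD1 rose and ACTA2 fell. TPM1, TPM2, TAGLN2 and CNN3, whose windows held neither, all rose as well, so these matches did not separate the genes that rose. A match describes the letters only, and binding was not measured here.

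ACTA2 (ENSG00000107796.13_3) encodes smooth muscle α-actin, the actin isoform of vascular smooth muscle and myofibroblasts. The gene spans bases 90694831 to 90751096 of chromosome 10 in GRCh37 and is read from the minus strand. Control libraries 1 to 3 gave 4.68, 3.55 and 5.06 FPKM, against 1.20, 0.993 and 1.18 FPKM in shSETD2 libraries 1 to 3. Every shSETD2 library lay below every control library. On mean FPKM the gene was 3.94-fold lower, with 4.43 ± 0.786 and 1.12 ± 0.114 (SD, n = 3), or -1.34 on the log2 scale (standard error 0.12, adjusted p = 5.78e-05). ACTA2 was the only one of the 10 genes that fell in the main test. The annotated gene body of ACTA2 shares 40080 bases with STAMBPL1 and 758 bases with FAS, both on the opposite strand. Both of these genes rose, STAMBPL1 from 1.02 ± 0.250 to 2.24 ± 0.259 FPKM and FAS from 1.12 ± 0.251 to 17.3 ± 1.26 FPKM (SD, n = 3), so they moved against ACTA2. The library kit was stranded, but whether strand was used in the quantification is not given in the sources used here.

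The cytoplasmic actin genes moved against ACTA2, and the skeletal muscle actin gene was also lower in every shSETD2 library. The cytoplasmic actins ACTB and ACTG1, which build the filaments of every cell, rose from 208.4 ± 6.25 to 727.3 ± 26.2 FPKM and from 163.9 ± 3.36 to 266.1 ± 14.7 FPKM (SD, n = 3). ACTA1, the skeletal muscle actin, was under the filter, with a control level of 0.512 ± 0.109 FPKM (SD, n = 3), and was listed at 0 in 2 of 3 shSETD2 libraries, and ACTC1 and ACTG2 were not listed. ACTA2 made up 1.26%, 0.932% and 1.33% of the summed actin FPKM in control libraries 1 to 3 and 0.122%, 0.101% and 0.116% in shSETD2 libraries 1 to 3. This share was lower in all 3 shSETD2 libraries (exact permutation test, two-sided, p = 0.1, adjusted p = 0.1 over 9 shares). With 3 libraries against 3 no share could reach a p under 0.1, and the same p of 0.1 was found for each of the 9 shares, among which TAGLN and TAGLN2, and CNN2 and CNN3, are complements. Without ACTB and ACTG1 in the sum the share of ACTA2 was higher instead, by 9.39 percentage points, since ACTA1 then made up the rest.

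MYL9 (ENSG00000101335.9_2) lies on the plus strand of chromosome 20 from 35169887 to 35179850. It was listed at 0 in control libraries 1 and 2 and at 0.0558 FPKM in control library 3, against 45.5, 41.0 and 47.5 FPKM in shSETD2 libraries 1 to 3. The gene was near or at 0 in every control library and ranked 657 of 15897 genes by mean FPKM in the shSETD2 libraries. The log2 difference of 5.48 (standard error 0.068, adjusted p = 2.26e-08) depends on the pseudocount, since it became 8.59 with 0.1 and 11.22 with 0.01. MYL12A and MYL12B, the regulatory light chains of non-muscle myosin in most cells, rose as well, from 10.6 ± 1.19 to 47.3 ± 5.32 FPKM and from 29.7 ± 0.501 to 107.8 ± 2.53 FPKM (SD, n = 3). The share of MYL9 in the summed FPKM of these 3 light chain genes went from 0%, 0% and 0.133% in control libraries 1 to 3 to 23.4%, 21.1% and 22.5% in shSETD2 libraries 1 to 3 (exact permutation test, two-sided, p = 0.1). Thus the light chain pool held a component in the shSETD2 libraries that was listed at or near 0 in the control libraries.

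**Figure D2:**
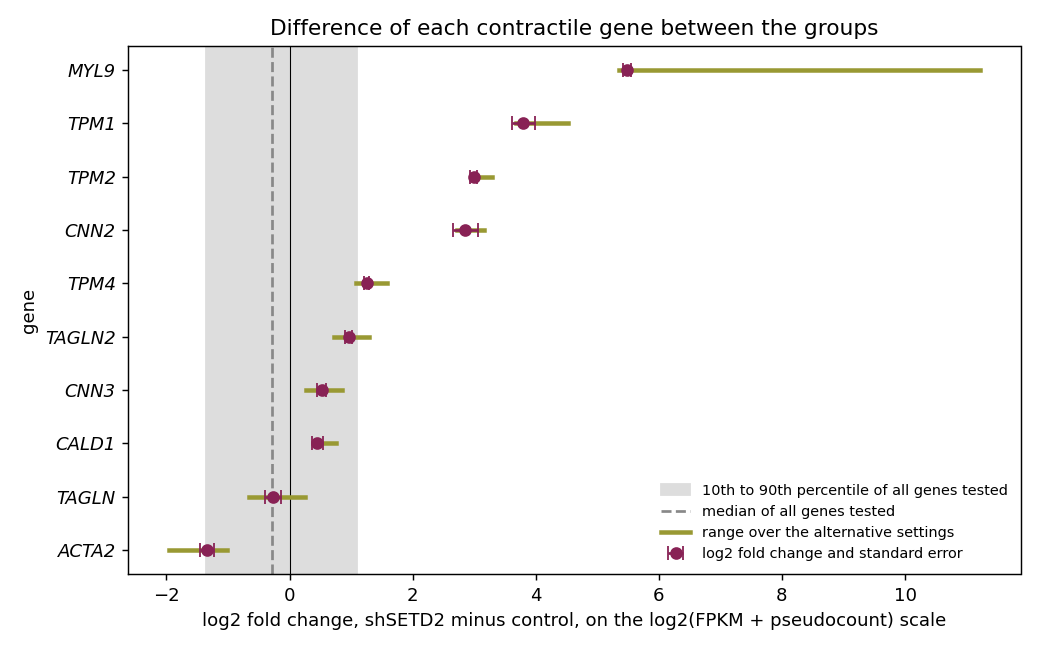
Log2 fold change of each gene (points, with standard error) and its range over the alternative settings (olive lines), beside the median (dashed) and the 10th to 90th percentile (grey) of all genes tested. MYL9, TPM1, TPM2, CNN2 and TPM4 lie beyond the 90th percentile of 1.10, ACTA2 lies just inside the 10th percentile of -1.36, and the line of TAGLN crosses 0.

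All 3 tropomyosin genes of the list rose. For TPM1 (ENSG00000140416.19_4, chromosome 15, 63334831 to 63364114), FPKM was 1.37, 1.44 and 1.38 in the controls, in the order of their numbers, and 38.1, 37.6 and 23.6 with shSETD2, or 3.80 on the log2 scale (standard error 0.18, adjusted p = 3.30e-06). The lowest shSETD2 library was still far above the highest control library, but shSETD2 library 3 was at 62.9% of the lower of the other two. A gap of that kind, by which library 3 lay more than the third part below the lower of the other two, was rare, found for 55 of the 6523 tested genes with a mean of at least 5 FPKM in the shSETD2 libraries (0.843%). Without that library the log2 fold change was 4.02, so it did not carry the difference. TPM2 (ENSG00000198467.13_3, chromosome 9, 35681989 to 35691017) was at 3.90, 3.40 and 3.86 FPKM in control and at 36.9, 35.4 and 37.2 FPKM in shSETD2 libraries 1 to 3. The libraries of each group lay close together, and differed between groups by 2.99 on the log2 scale (standard error 0.057, adjusted p = 7.63e-08). TPM4 (ENSG00000167460.14_4, chromosome 19, 16177831 to 16213815), the short tropomyosin typical of non-muscle cells, started from a higher level, 16.6, 16.0 and 17.3 FPKM in the control libraries, and reached 40.6, 42.2 and 40.6 FPKM with shSETD2. Its rise was 2.47-fold, or 1.26 on the log2 scale (standard error 0.043, adjusted p = 8.29e-07).

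The make-up of the tropomyosin pool was compared over 4 genes, with TPM3 added to the list. TPM3, which encodes a further non-muscle and slow muscle tropomyosin, rose from 7.33 ± 0.652 to 32.3 ± 7.25 FPKM (SD, n = 3), and the summed FPKM of the 4 genes rose 4.91-fold, from 29.1 ± 1.26 to 143.0 ± 11.4 (SD, n = 3). TPM4 provided 58.2%, 56.8% and 56.8% of this sum in control libraries 1 to 3 and 26.1%, 30.0% and 30.5% in shSETD2 libraries 1 to 3. The share of TPM1 went from 4.80% ± 0.289 to 23.0% ± 4.69 (SD, n = 3), and that of TPM2 was 12.8% ± 0.826 and 25.6% ± 2.14 (SD, n = 3). The share of TPM3 overlapped between the groups, at 25.2% ± 1.57 and 22.5% ± 3.96 (SD, n = 3). In the control libraries 1 gene thus exceeded the other three together, while in the shSETD2 libraries the 4 genes had shares between 22.5% and 28.9% on average. For TPM1, TPM2 and TPM4 the share did not overlap between the groups (exact permutation test, two-sided, p = 0.1 each, the smallest possible). Gene-level FPKM does not separate the muscle and non-muscle isoforms that each tropomyosin gene makes by alternative promoters and splicing.

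**Figure D3:**
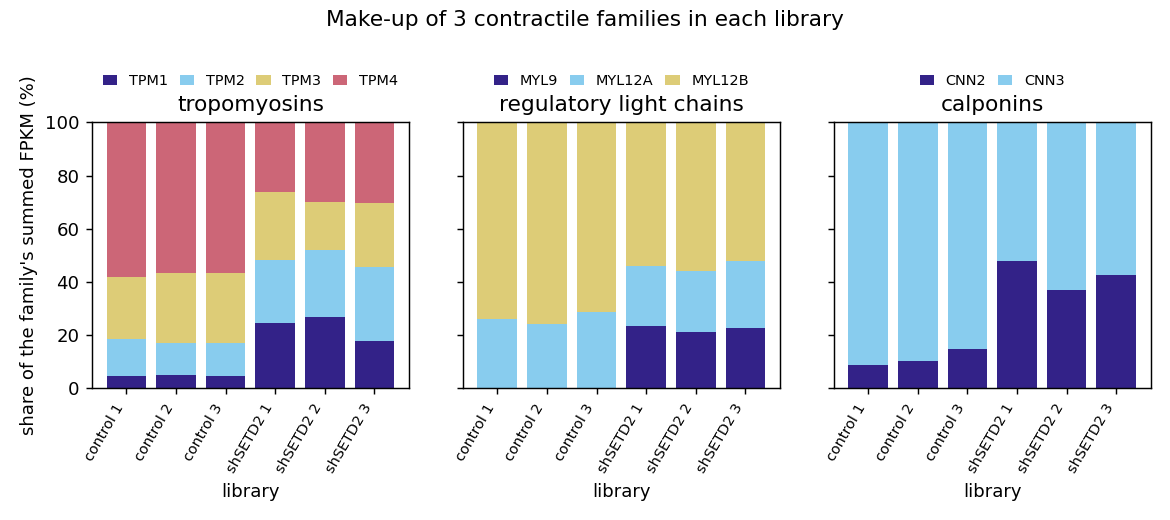
Share of each gene in the summed FPKM of its family (stacked bars, in percent) in the 3 control and 3 shSETD2 libraries, for the tropomyosins, the myosin regulatory light chains and the listed calponins. TPM4 falls from 57.2% to 28.9% of the tropomyosin sum, MYL9 appears at 22.3% of the light chain sum, and CNN2 goes from 11.3% to 42.6% of the calponin sum.

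CALD1 (ENSG00000122786.19_3, chromosome 7, 134429003 to 134655479), which encodes caldesmon, had a small rise, close to that of CNN3 below. It measured 9.25, 8.03 and 8.22 FPKM in control libraries 1 to 3 and 12.3, 10.5 and 13.3 in shSETD2 libraries 1 to 3. The groups did not overlap, but the distance between control library 1 and shSETD2 library 2 was smaller than the SD of 1.40 FPKM of the shSETD2 libraries. On mean FPKM the gene was 1.42-fold higher, or 0.45 on the log2 scale (standard error 0.094, adjusted p = 4.13e-03).

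The 2 calponin genes of the list differed in size of change. CNN2 (ENSG00000064666.14_3, chromosome 19, 1026580 to 1039067), the calponin of many non-muscle cells, had control values of 3.83, 4.20 and 6.86 FPKM and shSETD2 values of 47.7, 36.3 and 40.2 FPKM. Both groups were spread out, with control library 3 above the other two, yet the groups lay far apart (log2 fold change 2.86, standard error 0.20, adjusted p = 2.03e-05). CNN3 (ENSG00000117519.15_2, chromosome 1, 95362505 to 95392834), the acidic calponin, was already at 39.8, 36.0 and 39.8 FPKM in the control libraries and at 51.5, 61.9 and 53.9 FPKM in the shSETD2 libraries. It rose 1.45-fold (log2 fold change 0.52, standard error 0.079, adjusted p = 9.28e-04), and with quantile normalization its log2 fold change was 0.26, below the 0.51 of CALD1. CNN1, the calponin of differentiated smooth muscle, was not listed. CNN2 therefore took 42.6% ± 5.56 of the summed FPKM of CNN2 and CNN3 in the shSETD2 libraries against 11.3% ± 3.06 (SD, n = 3) in the control libraries (exact permutation test, two-sided, p = 0.1).

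The transgelins split by gene. TAGLN (ENSG00000149591.16_3, chromosome 11, 117070037 to 117075498), which encodes the smooth muscle protein SM22α, was low throughout, with control values of 0.618, 1.14 and 0.788 FPKM and shSETD2 values of 0.452, 0.711 and 0.426 FPKM. The ranges crossed, with shSETD2 library 2 higher than control library 1, and the log2 difference of -0.27 (standard error 0.13, adjusted p = 0.0911) did not pass the test, turned to 0.25 (adjusted p = 0.113) with quantile normalization, and passed without control library 1 (-0.36, adjusted p = 0.0414). TAGLN2 (ENSG00000158710.14_2, chromosome 1, 159887897 to 159895522), its widely expressed homolog, was the most abundant of the 10 genes in both groups. It measured 57.6, 64.6 and 65.4 in control and 124.7, 118.6 and 124.0 FPKM in shSETD2 libraries 1 to 3, without overlap. The rise was 1.96-fold (log2 fold change 0.96, standard error 0.056, adjusted p = 8.50e-06). TAGLN2 held at least 98.3% of the summed FPKM of the 2 listed transgelins in every library, and TAGLN3 was not listed. The TAGLN gene body shares 446 bases with PCSK7 on the opposite strand, which did not pass the test.

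By order of mean FPKM, the control libraries ran from TAGLN2 (62.5) over CNN3 (38.5), TPM4 (16.7), CALD1 (8.50), CNN2 (4.96), ACTA2 (4.43), TPM2 (3.72), TPM1 (1.40) and TAGLN (0.847) down to MYL9. Of the neighbours in this order, the libraries of CNN2 and ACTA2 overlapped, as did those of ACTA2 and TPM2. In the shSETD2 libraries the order was TAGLN2 (122.4), CNN3 (55.8), MYL9 (44.6), CNN2 (41.4), TPM4 (41.1), TPM2 (36.5), TPM1 (33.1), CALD1 (12.0), ACTA2 (1.12) and TAGLN (0.529). From MYL9 to TPM1 each pair of neighbours overlapped in range except TPM4 and TPM2, and these 5 genes that spanned from 0 to 17.3 FPKM in the control libraries had come to means between 33.1 and 44.6 FPKM. ACTA2 and TAGLN, both markers of smooth muscle, were the lowest of the 10 genes in the shSETD2 libraries, while MYL9, used as a marker of the same tissue, was the third highest.

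SRF and its cofactors were measured in the same libraries. Of 8 genes of this list 7 were listed and tested, MYOCD, the cofactor of smooth muscle, was not listed, and 3 rose and 1 fell. Counts of this list and of each list below stand beside 26.8% rising and 51.8% falling over all genes tested. The lists were chosen with earlier results of these data known. SRF was at 18.0 ± 0.374 and 16.6 ± 1.23 FPKM and MKL1, which encodes the cofactor MRTF-A, at 7.36 ± 0.417 and 7.24 ± 0.860 FPKM (SD, n = 3), with log2 fold changes of -0.11 (standard error 0.060, adjusted p = 0.151) and -0.03 (standard error 0.087, adjusted p = 0.796). Both calls depend on the scaling of the libraries. With median ratio scaling SRF and MKL1 passed as higher (0.21, adjusted p = 0.0216, and 0.27, adjusted p = 0.0272), and with quantile normalization SRF passed as lower (-0.20, adjusted p = 0.0237). MKL2 (MRTF-B) rose from 3.05 ± 0.907 to 6.15 ± 1.70 FPKM (SD, n = 3). The rise measured 0.81 on the log2 scale (standard error 0.23, adjusted p = 0.0160). It left a narrow gap, since control library 1 was at 4.09 FPKM and shSETD2 library 2 at 4.18 FPKM. ELK3 and ELK1, ternary complex factors that pair with SRF, rose from 5.64 ± 0.300 to 44.2 ± 0.784 and from 12.8 ± 0.543 to 26.3 ± 2.07 FPKM (SD, n = 3), while ELK4 was at 12.3 ± 0.674 and 11.2 ± 0.689 FPKM (SD, n = 3) and did not pass the test, with a log2 fold change of -0.13 (adjusted p = 0.111) that became 0.18 (adjusted p = 0.0338) with median ratio scaling. SCAI, a suppressor of MRTF activity, fell from 3.43 ± 0.116 to 1.34 ± 0.0288 FPKM (SD, n = 3).

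Of 16 genes of non-muscle myosin and its regulators, 15 were tested, of which 5 rose and 6 fell. Over all genes tested 26.8% rose and 51.8% fell, so genes that changed were common in both directions in these data. The heavy chains moved apart. MYH9 (myosin IIA) rose from 46.3 ± 0.870 to 401.6 ± 12.5 FPKM, MYH10 (myosin IIB) fell from 44.2 ± 1.11 to 25.5 ± 0.377 FPKM, and MYH14 (myosin IIC) fell from 4.81 ± 0.405 FPKM (SD, n = 3) to 0.0106 FPKM in 1 shSETD2 library and was listed at 0 in the other two. In the control libraries MYH9, at 45.3 to 46.9 FPKM, lay just above MYH10, at 42.9 to 45.0 FPKM. RHOC, a small GTPase that promotes contraction, rose from 4.43 ± 0.0777 to 33.2 ± 3.39 FPKM (SD, n = 3) and ARHGEF2, an activator of RHOA, from 5.51 ± 0.642 to 10.9 ± 1.04 FPKM (SD, n = 3). PPP1R12B, a targeting subunit of myosin phosphatase, fell from 2.68 ± 0.530 to 1.00 ± 0.226 FPKM (SD, n = 3). MYLK, the kinase that phosphorylates the MYL9 light chain, was under the filter, with 0.569, 0.729 and 0.494 FPKM in the controls and at most 0.0150 FPKM with shSETD2. RHOA, at 148.9 ± 2.26 and 152.8 ± 8.37 FPKM (SD, n = 3), did not pass the main test, and its call depends on the scaling. It passed as lower with quantile normalization (-0.21, adjusted p = 2.84e-03) and as higher with median ratio scaling (0.37, adjusted p = 2.86e-04). With median ratio scaling 10 genes of this list rose and 4 fell, and with quantile normalization 5 rose and 9 fell. The division of this list thus depends on the scaling.

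Of 16 stress fibre crosslinkers and anchors, 13 rose and 2 fell, with a median log2 fold change of 1.5 on the log2(FPKM + 1) scale. The 3 largest rises were those of CSRP1, a LIM protein of the actin cytoskeleton (0.139 ± 0.0557 to 14.8 ± 1.93 FPKM), ACTN1, which encodes α-actinin (7.04 ± 0.649 to 55.0 ± 1.11 FPKM), and SYNPO, which encodes an α-actinin partner (0.473 ± 0.0165 to 7.66 ± 0.290 FPKM, SD, n = 3). FLNA, a filamin of most cells, rose from 64.5 ± 0.354 to 270.3 ± 13.9 FPKM, while FLNC, the filamin of muscle, fell from 13.1 ± 0.520 to 0.00956 ± 0.00442 FPKM (SD, n = 3). LIMA1, an actin bundling protein, fell from 5.64 ± 1.63 to 2.00 ± 0.0697 FPKM (SD, n = 3).

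Of 16 genes of actin turnover and filament ends, 13 rose and 1 fell, with a median log2 fold change of 0.84. The monomer-sequestering thymosins TMSB4X and TMSB10 rose from 21.0 ± 0.708 to 146.7 ± 6.98 FPKM and from 259.6 ± 4.31 to 1684 ± 68.5 FPKM, and the capping protein gene CAPG from 1.03 ± 0.0981 to 11.8 ± 3.16 FPKM (SD, n = 3). The gene that fell was CFL2, the cofilin of muscle, from 11.1 ± 0.209 to 3.88 ± 0.734 FPKM, while its non-muscle counterpart CFL1 rose from 22.0 ± 3.35 to 51.4 ± 4.74 FPKM (SD, n = 3).

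TGF-β signaling induces ACTA2 and TAGLN in fibroblasts. Of 10 ligands, receptors and SMADs, 7 rose and 2 fell, with a median log2 fold change of 0.73. SMAD3, a transducer of the signal, rose from 5.16 ± 0.230 to 42.8 ± 0.721 FPKM, the receptor gene TGFBR2 from 3.81 ± 0.283 to 23.7 ± 0.368 FPKM and the ligand gene TGFB1 from 9.41 ± 0.172 to 39.7 ± 2.61 FPKM (SD, n = 3). The coreceptor gene TGFBR3 fell from 4.40 ± 0.682 to 1.98 ± 0.190 FPKM and the ligand gene TGFB3 from 0.715 ± 0.249 to 0.288 ± 0.0968 FPKM (SD, n = 3), a change that turned to a log2 value of 0.13 with quantile normalization. Of the 8 listed paralogs of the 10 genes, 7 were tested and 6 rose. These were ACTB, ACTG1, TPM3, MYL12A and MYL12B, described above, and MYL6, the essential light chain of non-muscle myosin, from 13.4 ± 0.286 to 34.5 ± 0.611 FPKM (SD, n = 3). MYL6B was at 8.22 ± 1.34 and 7.17 ± 0.213 FPKM (SD, n = 3) and did not pass the test.

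**Figure D4:**
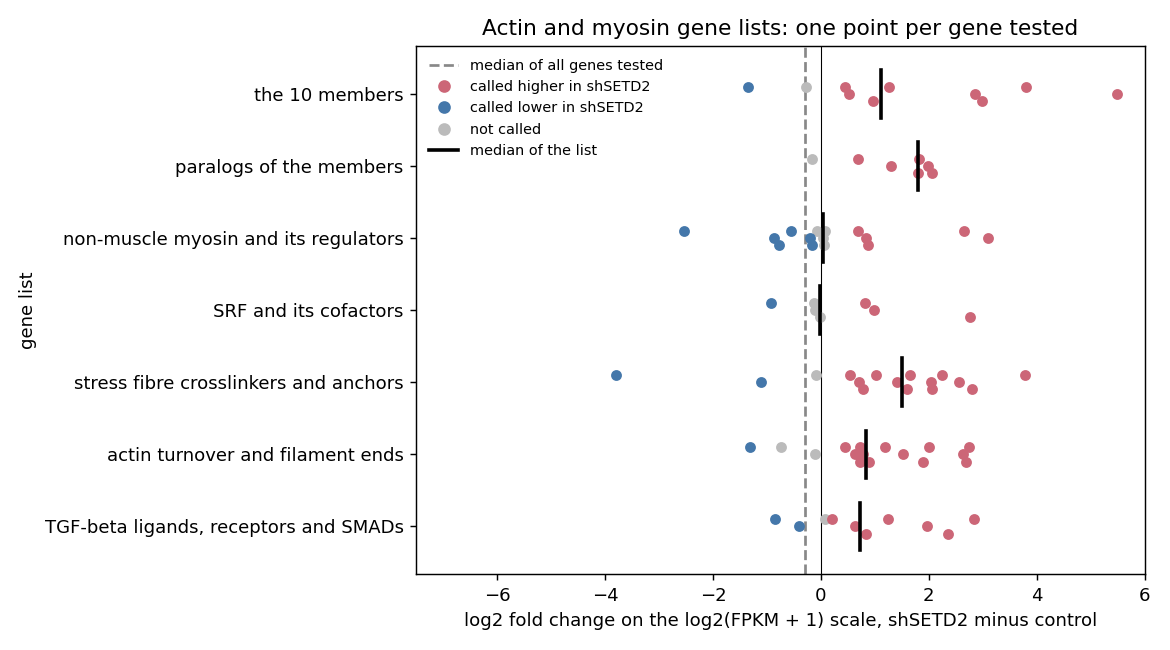
Log2 fold change of each gene tested (1 point per gene; red, higher in shSETD2; blue, lower; grey, not past the threshold) for the 10 genes and 6 lists of related genes, with the median of each list (black bar) and of all genes tested (dashed line at -0.29). The medians of the crosslinkers and of the actin turnover genes are at 1.5 and 0.84, and those of the myosin and SRF lists are at 0.04 and -0.03.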

How the data were processed

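RNA-seq was performed on 3 control and 3 shSETD2 libraries of H1650 cells. The authors mapped reads to hg19 (GRCh37) with Hisat2, quantified genes with Ballgown (versions not given in the sources used here) and deposited FPKM per gene and library. A second deposited table repeats these FPKM and adds the authors' own fold changes, p-values and group means, which were not used. Between libraries 1 and 2 of each group, the commonest ratio of low values was shared by at most 3.30% of those values. Read numbers and counting error are thus unknown, and precision rests on 3 libraries per group.

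The test used limma 3.58.1 in R 4.3.3 (lmFit, then eBayes with a trend over intensity) on log2(FPKM + 1) for genes averaging 0.5 FPKM or more, two-sided, with Benjamini-Hochberg adjustment over 14068 genes. The pseudocount of 1 shrinks the fold changes of weakly expressed genes. Shares within families were compared with exact permutation tests (scipy 1.17.1). Samples were grouped by title. The fit was tested on simulated data in which few genes changed, against 78.6% past the threshold here. That simulation does not cover differences as broad as these. The members and lists were chosen with earlier results of these data known. The genes named are the 10 members, SETD2, VIM, MYLK, MYH9, MYH10, all paralogs and SRF list genes, up to 3 genes past the threshold with the largest change each way in the other lists, and markers with a mean of at least 1 FPKM in a group. FAS, STAMBPL1, PCSK7, FLNA, CFL1, RHOA, EPCAM, CLDN4 and ESRP1 were chosen after their values were seen. Alternatives were pseudocounts of 0.1 and 0.01, no filter or a mean FPKM of at least 5, 3 scalings of the libraries, no intensity trend, an ordinary linear model, the replicate number as a block, and each library left out in turn.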

Additional observations from a re-analysis of the deposited data

How the results depend on the processing

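The count of 8 rising genes among the 10 was found under all 16 alternatives, and ACTA2 was lower in all 15 that tested it. TAGLN turned to 0.25 with quantile normalization and passed the test at -0.27 with the replicate number as a block, as SETD2 did at -0.58. Without 1 library TAGLN ranged from -0.36 to -0.16 and SETD2 from -0.83 to -0.45. The number of the 10 genes that fell was 2 with the replicate block, 0 with a mean FPKM of at least 5, where ACTA2 and TAGLN were not tested, and 1 to 2 without 1 library. The block changed no other call among the 10 genes. The replicate numbers did not pair the libraries, with correlations of same-numbered deviations from the group means of -0.0237, 0.0177 and -0.00766, and the block moved the calls over all genes from 11057 to 10976.

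Among the lists, a mean FPKM of at least 5 left falls of 0 SRF genes, 1 crosslinker and 0 TGF-β genes. Median ratio scaling gave rises of 10 myosin and 6 SRF genes and a fall of 1 TGF-β gene. Quantile normalization gave falls of 9 myosin genes, 2 SRF genes and 1 TGF-β gene. The ordinary linear model gave a fall of 1 TGF-β gene, and no filter gave a fall of 1 paralog. Rises were fewer in some settings too. The ordinary linear model gave rises of 2 SRF, 12 actin turnover and 5 TGF-β genes. The filter at a mean FPKM of 5 gave rises of 2 SRF, 10 crosslinker and 5 TGF-β genes. Rises ranged, without 1 library, from 2 to 3 for SRF, 12 to 13 for actin turnover and 6 to 7 for TGF-β genes. Without 1 library, falls ranged from 0 to 1 for paralogs and from 1 to 2 for actin turnover and for TGF-β genes. The difference in the ACTA2 share turned to 9.39 percentage points without ACTB and ACTG1. The cause of these changes was not tested, beyond the smaller number of genes tested with the higher filter. A library left out of its group leaves 2 against 3, where an exact permutation test cannot go under 0.2. Read depth is unknown and limits low genes such as TAGLN.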

Other observations

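The nearest genes along the chromosome did not move as the 10 genes did in every case. DLGAP4 and TGIF2 lie on either side of MYL9, and DLGAP4 rose (log2 fold change 1.25, standard error 0.056, adjusted p = 2.50e-06) while TGIF2 fell (-1.24, standard error 0.28, adjusted p = 6.19e-03). TLN2 and LACTB, beside TPM1, both fell, with log2 fold changes of -1.39 and -0.36. TLN1, the gene of the adhesion protein talin beside TPM2, rose with a log2 fold change of 1.41. CA9, on the other side of TPM2 and nearer to it, averaged 0.0205 FPKM in the control and 0.0244 FPKM in the shSETD2 libraries and was not tested. Only neighbours of MYL9, TPM1 and TPM2 are given here, not those of all 10 genes. Among all genes tested, 26.8% rose and 51.8% fell. No cause was tested.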
